A study of Mus musculus with 4 samples.

Results

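The T cell antigen receptor signals through the CD3 chains and the zeta chain that surround its antigen-binding subunits, and through the kinases and adaptors that these chains engage first. The members are 9 genes: Cd3d, Cd3e, Cd3g and Cd247 for the signalling chains, Lck and Zap70 for the proximal tyrosine kinases, Lat and Lcp2 for the adaptors, and Cd5 for a coreceptor-like inhibitor. They were chosen by name as the core of this complex, with earlier results of these data known. Their probes were found through the transcript accession printed for each array spot. The 9 genes had 16 probes and stand among 45526 genes or unnamed transcripts on the array, of which 20512 were tested.

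Naive CD4+ T cells of male C57BL/6 mice, wild type or Irf4-/- (lacking the transcription factor Irf4), were sorted from spleen and stimulated for 2 days with an antibody to CD3e at 1 µg per ml. Syngeneic antigen-presenting cells treated with mitomycin C were present in both genotypes, so the living CD4+ cells sorted for RNA came from mixed cultures. Each genotype has 2 samples, from 2 independent experiments per the design text, each on 1 one-colour Agilent array, and nothing ties a sample to single mice, so p-values measure the spread between these samples. The label Irf4-/- gives no promoter or Cre that would restrict the deletion to T cells.

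On engagement of the receptor, Lck phosphorylates paired tyrosines in the cytoplasmic tails of the CD3 and zeta chains, which then recruit Zap70. Zap70 phosphorylates the membrane adaptor LAT and the cytosolic adaptor SLP-76, the product of Lcp2, and calcium entry and Ras activation follow. CD5 dampens this signalling, and its surface level is known to follow the strength of receptor signalling in T cells. Irf4 is itself induced through this receptor.

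The promoter windows of the 3 members with the largest differences between genotypes are given here from RefSeq (GRCm38.p6), as 300 bases from upstream of a transcription start to just past it. Capitals mark each match to the NFAT core letters GGAAA or their reverse complement, since NFAT is a factor that this receptor activates.

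Cd5, minus strand, chr19:10738925-10739224: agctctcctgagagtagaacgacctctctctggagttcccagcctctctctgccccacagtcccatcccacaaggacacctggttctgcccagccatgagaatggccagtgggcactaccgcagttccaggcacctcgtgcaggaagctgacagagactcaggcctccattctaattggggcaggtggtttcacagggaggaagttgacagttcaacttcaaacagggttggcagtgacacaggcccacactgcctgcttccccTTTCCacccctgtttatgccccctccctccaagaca
Cd247, plus strand, chr1:165788431-165788730: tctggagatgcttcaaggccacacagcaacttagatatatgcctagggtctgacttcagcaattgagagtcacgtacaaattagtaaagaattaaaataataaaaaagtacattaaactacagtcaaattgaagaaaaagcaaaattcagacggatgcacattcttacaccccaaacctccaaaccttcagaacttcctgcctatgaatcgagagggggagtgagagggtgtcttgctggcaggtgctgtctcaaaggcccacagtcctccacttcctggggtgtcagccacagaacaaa
Zap70, plus strand, chr1:36761548-36761847: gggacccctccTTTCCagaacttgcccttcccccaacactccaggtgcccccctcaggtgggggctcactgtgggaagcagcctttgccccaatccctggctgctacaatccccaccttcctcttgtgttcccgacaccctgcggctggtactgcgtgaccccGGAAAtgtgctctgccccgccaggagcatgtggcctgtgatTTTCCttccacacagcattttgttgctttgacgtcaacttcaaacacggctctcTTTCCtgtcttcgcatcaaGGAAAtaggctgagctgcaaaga

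The RefSeq table lists 12 promoter windows for the 9 genes, 3 of them for Zap70 and 2 for Lck. The NFAT core letters occurred 5 times in the Zap70 window shown, 0 times in the other 2 Zap70 windows and 1 time in that of Cd5, and were not found in that of Cd247. They were found in 8 of the 12 windows, and in 61.3% of all 32851 windows of 300 bases. Letters of elements that Irf4 is known to bind were searched on both strands too. The interferon-stimulated response element core (GAAA, any 2 bases, GAAA; 3.44% of all windows) and the Ets-Irf composite (GGAA, any 2 bases, GAAA; 2.72%), which can overlap each other, were found in 0 of the 12 windows. The AP-1 letters TGANTCA (7.81% of all windows) and the AP-1-Irf composite (TTTC, any 4 bases, TGANTCA; 0.119%), which holds them, were also found in 0 of the 12. A match is a description of letters, and a window without one says nothing about binding elsewhere.

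The 4 arrays shared 1 slide and 1 scan. Of 56605 probes, 25682 to 28728 per array had a signal well above background. Levels are given as log2 signal minus the 75th percentile of the same array, and n = 2 for each genotype throughout. Irf4 itself was at 5.03 and 4.74 on the wild-type arrays and at 4.23 and 4.04 on the knockout arrays, and its difference of -0.75 ± 0.20 (SE) missed the threshold (limma, adjusted p = 0.231), while a second Irf4 probe differed by -0.37 (limma over all probes, adjusted p = 0.510). No source used here places its probes inside or outside the deleted part, and the remaining signal is therefore no check of the labels. Slide column and genotype cannot be told apart, since column 1 held the wild-type arrays and columns 2 and 3 the knockout arrays. All 8 T cell markers measured were above background on every array. Cd4, the coreceptor that defines these cells, was at 5.83 and 5.51 in wild-type and 5.82 and 5.75 in knockout cells, and Thy1 at 8.38 and 8.31 against 8.32 and 8.30. Of the 8 differences 7 were negative, the largest being those of Cd2, an adhesion receptor gene, and Cd28, a costimulatory receptor gene, each -0.48 without overlap and without passing (limma, adjusted p = 0.373 and 0.408).

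Without Irf4, transcripts of the receptor's CD3 chains and of its adaptors lay close to their wild-type levels. Cd5 was 1.81-fold higher, Zap70 1.24-fold higher and Cd247 1.29-fold lower on the probes representing them. Larger absolute differences were found in 7.45% of all genes for Cd5, 29.3% for Zap70 and 24.8% for Cd247. All 16 probes were well above background on all 4 arrays and no spot was saturated, so all 9 genes were tested. Of the 9, 0 passed the test (limma, adjusted p under 0.05), and of all genes tested 0.736% did (0.492% higher and 0.244% lower in knockout cells). At an unadjusted p under 0.05 Cd5 was the 1 member, against 11.4% of all genes. The 9 differences had a median of 0.02 and a median size of 0.12, and the 20512 differences of all genes a median of -0.02 and a median size of 0.18. Knockout and wild-type arrays did not overlap for 5 of the 9 genes, 3 higher (Cd5, Zap70 and Lck) and 2 lower (Cd247 and Cd3g), and for 39.2% of all genes (17.9% higher, 21.3% lower). The smallest difference that passed over all genes was 2.84-fold, larger than that of any member. In sorted bulk RNA, fewer cells of a type and less RNA per cell cannot be told apart.

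**Figure D1:**
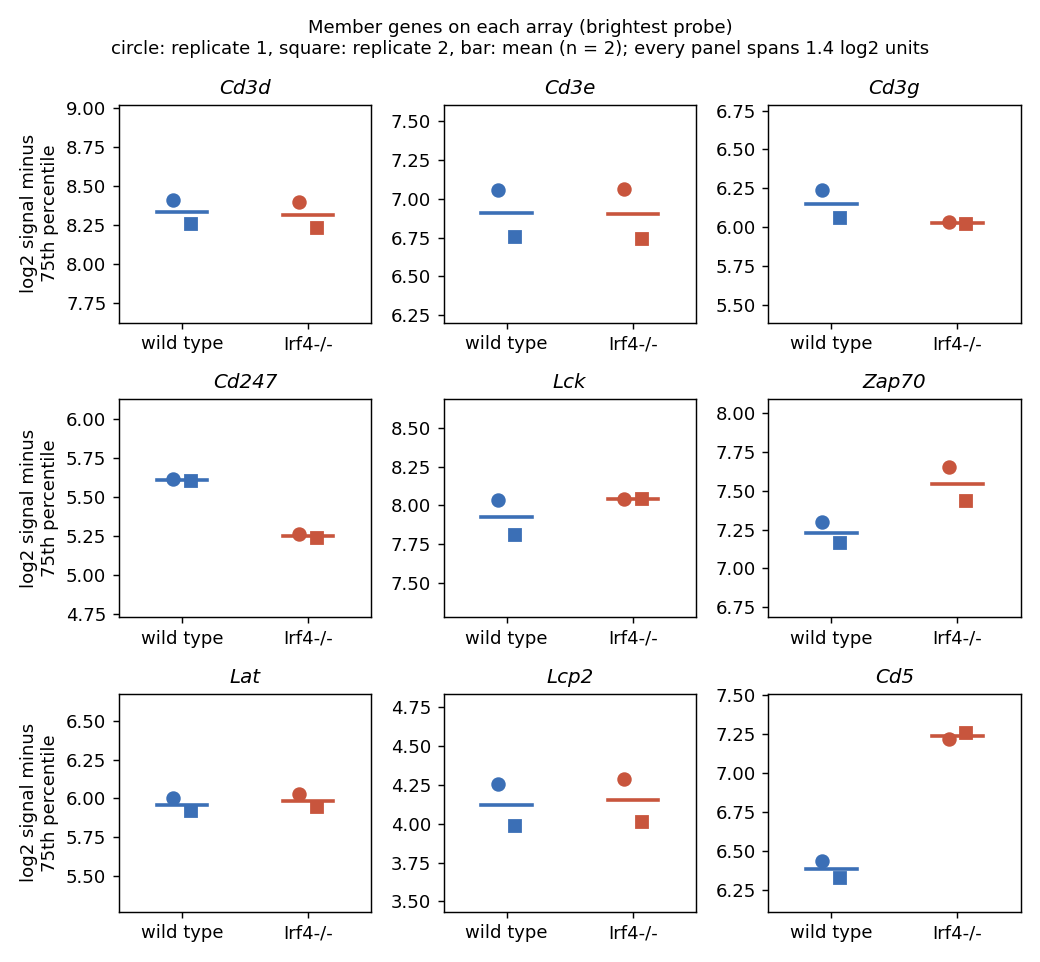
Log2 signal minus the array's 75th percentile (vertical axis) of the 9 genes on the 2 wild-type and the 2 Irf4-/- arrays, with circles for replicate 1, squares for replicate 2 and bars for means, all panels spanning the same range. Cd5 is higher on both knockout arrays by at least 0.78, Cd247 is lower on both by at least 0.34, and Cd3d, Cd3e, Lat and Lcp2 overlap.

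Cd3d, Cd3e and Cd3g encode the delta, epsilon and gamma chains, which pair as epsilon-delta and epsilon-gamma beside the antigen-binding chains, and their genes lie next to each other on chromosome 9. Cd3d was at 8.41 and 8.25 on the wild-type arrays and at 8.40 and 8.23 on the knockout arrays. In both genotypes replicate 1 was the higher array, and the groups overlapped. The difference of -0.02 ± 0.18 (SE) had a 95% interval from -0.48 to 0.44 on the log2 scale, or 0.718 to 1.36 as a ratio of knockout to wild type (limma, adjusted p = 0.996).

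Cd3e, whose product the stimulating antibody binds, was at 7.06 and 6.76 in wild-type and at 7.06 and 6.74 in knockout cells. Replicate 1 again lay above replicate 2 in both genotypes, by more than the genotypes differed. Its difference was -0.01 ± 0.22 (SE), with a 95% interval from -0.56 to 0.55 (limma, adjusted p = 0.998). Second probes of Cd3d and Cd3e, fitted among all 26339 probes above background (of which 1.01% passed), differed by -0.02 and 0.07. Of the 3 genes, Cd3g alone had arrays that did not overlap, at 6.24 and 6.06 in wild-type and 6.03 and 6.02 in knockout cells. The gap between the nearest arrays was 0.03, and the difference of -0.12 ± 0.17 (SE) did not pass (limma, 95% interval -0.57 to 0.32, adjusted p = 0.931).

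On the far side of Cd3e lies Mpzl2, an adhesion protein gene of the immunoglobulin superfamily. Mpzl2 was at -2.53 and -1.71 on the wild-type arrays and was not well above background on either knockout array. Its signal was at least 4.53-fold lower in knockout cells, setting the wild-type mean against the lowest signal well above background on each knockout array. The fitted difference (measured means -2.12 and -5.41) did not pass (limma, adjusted p = 0.0650). Beyond it, Mpzl3 differed by -0.83 (limma, adjusted p = 0.237), and on the other side of Cd3g the ubiquitin ligase gene Ube4a differed by -0.41 (limma, adjusted p = 0.631). These neighbours were looked up after the members' values were seen.

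Cd247 encodes the zeta chain, a homodimer that carries most of the receptor's paired signalling tyrosines and completes the receptor for transport to the surface. It was at 5.62 and 5.60 on the wild-type arrays and at 5.26 and 5.23 on the knockout arrays. The SD was 0.01 in wild-type and 0.02 in knockout cells (n = 2), and both knockout arrays were below both wild-type arrays. The difference was -0.36 ± 0.16 (SE), a 1.29-fold lower level with a 95% interval from -0.79 to 0.06, and it did not pass (limma, adjusted p = 0.531). It was -0.36 in slide row 1 and -0.37 in slide row 2, the rows holding replicate 1 and replicate 2 of both genotypes.

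The 3 probes of Cd247 did not go one way. The probe just described (A_55_P2487460) carries the accession NM_001113391. A second probe (A_52_P173555, for NM_031162) was at 1.87 and 1.77 in wild-type and 1.46 and 1.56 in knockout cells, a difference of -0.31 (limma over all probes, adjusted p = 0.588). The third (A_55_P2212968, for NM_001113393) was at -3.48 and -3.64 in wild-type and at -2.97 and -3.08 in knockout cells, so that it was higher on both knockout arrays. Its difference of 0.54 ± 0.17 (SE) did not pass (limma over all probes, adjusted p = 0.303). Its processed signal was between 24.6 and 38.0, close to the lowest signals that counted as above background, which ran from 11.7 to 19.9 over the 4 arrays.

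The difference between probes was tested itself, in a fit of the within-array difference of each further probe from its gene's brightest probe over 5612 such pairs. From the third to the brightest Cd247 probe this difference of differences was 0.90 ± 0.11 (SE, 95% interval 0.60 to 1.19), and it did not pass after adjustment (limma, adjusted p = 0.229). Of all pairs 0.0356% passed, and 7.07% had an unadjusted p under 0.05, as this pair did. The other 6 pairs among the members had differences between -0.03 and 0.18, none with an adjusted p under 0.807 (limma). With the mean of the 3 probes in place of the brightest, Cd247 differed by -0.04, so its lower level rests on the bright probes.

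**Figure D2:**
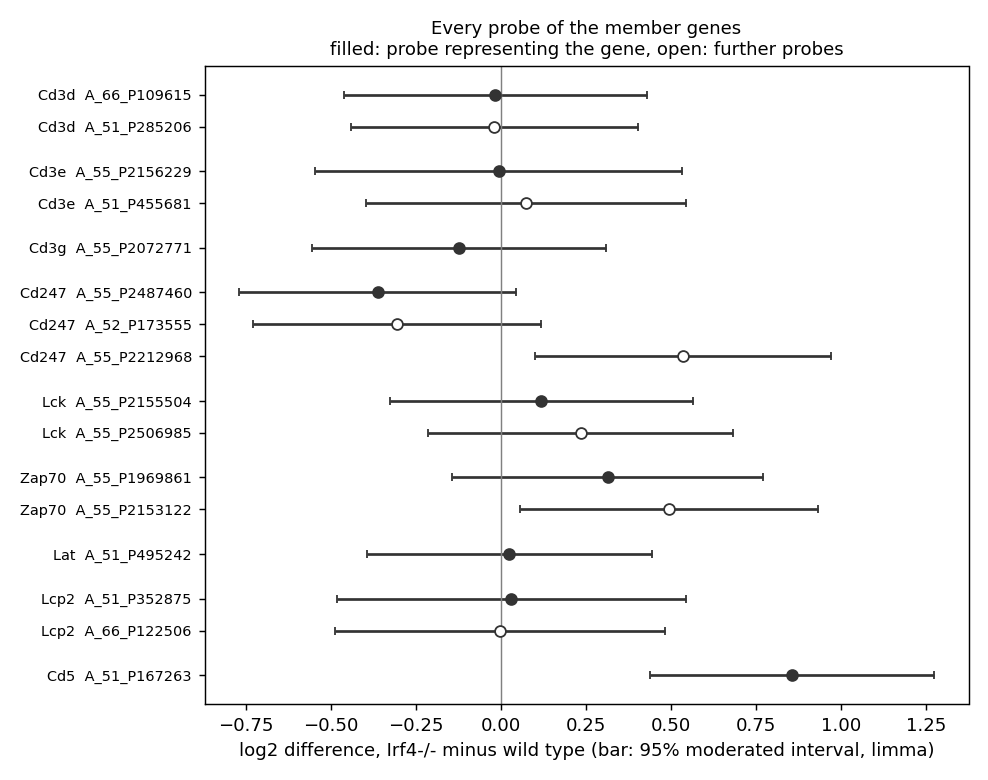
Log2 difference of Irf4-/- minus wild type (horizontal axis) for each of the 16 probes, with 95% moderated intervals from limma fitted over all probes, filled points marking the probe that represents a gene. The whole intervals of the Cd5 probe, the second Zap70 probe and the dim Cd247 probe lie above 0. The dim Cd247 probe at 0.54 lies opposite to the other 2 Cd247 probes at -0.36 and -0.31.

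Lck, the Src-family kinase that CD4 brings to the receptor, was at 8.04 and 7.81 on the wild-type arrays and at 8.04 and 8.04 on the knockout arrays. Wild-type replicate 2 was the low array, and the gap between the genotypes was 0.0047. The difference of 0.12 ± 0.18 (SE) had a 95% interval from -0.34 to 0.58 (limma, adjusted p = 0.938). Without wild-type replicate 1 it was 0.23 and without wild-type replicate 2 it was 0.01. A second probe, at 3.03 and 2.80 in wild-type and 3.13 and 3.16 in knockout cells, differed by 0.23 (limma over all probes, adjusted p = 0.743).

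Zap70, the kinase that binds the phosphorylated CD3 and zeta tails, was at 7.30 and 7.16 in wild-type and at 7.65 and 7.43 in knockout cells. The knockout arrays were the higher ones, without overlap, and the row 1 difference was 0.35 and that of row 2 0.27. The difference of 0.31 ± 0.18 (SE), 1.24-fold with a 95% interval from -0.16 to 0.79 on the log2 scale, did not pass (limma, adjusted p = 0.670). A second Zap70 probe with the same accession was at 5.63 and 5.57 in wild-type and 6.19 and 6.00 in knockout cells, again without overlap. It differed by 0.49 ± 0.17 (SE; limma over all probes, 95% interval 0.05 to 0.93, adjusted p = 0.350), and the 2 probes' differences did not differ beyond their error (0.18, limma, adjusted p = 0.807).

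Lat, the membrane scaffold that Zap70 phosphorylates, was at 6.00 and 5.92 in wild-type and at 6.03 and 5.94 in knockout cells, overlapping. Its difference was 0.02 ± 0.17 (SE; limma, 95% interval -0.41 to 0.46, adjusted p = 0.994). Lcp2, whose product SLP-76 joins LAT to phospholipase and cytoskeletal regulators, was at 4.25 and 3.98 in wild-type and at 4.29 and 4.01 in knockout cells. Replicate 2 was the lower array in both genotypes. The difference was 0.03 ± 0.20 (SE; limma, 95% interval -0.50 to 0.56, adjusted p = 0.994), and a second probe gave -0.0042. The intervals of Cd3d, Cd3e, Lat and Lcp2 show what the arrays leave possible: changes of up to about 0.56 either way on the log2 scale, within which none of them is shown to be equal between genotypes.

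Cd5, the scavenger-receptor family inhibitor, had the largest difference of the 9. It was at 6.43 and 6.33 on the wild-type arrays and at 7.22 and 7.26 on the knockout arrays. The nearest arrays of the 2 genotypes were 0.78 apart, and the means were 6.38 ± 0.07 and 7.24 ± 0.03 (SD, n = 2). The difference of 0.86 ± 0.17 (SE), 1.81-fold with a 95% interval from 0.42 to 1.29 on the log2 scale, did not pass over all genes (limma, adjusted p = 0.130, unadjusted p = 0.00386). The row 1 arrays differed by 0.78 and the row 2 arrays by 0.93, and 7.45% of all genes had a larger absolute difference. With trend and robust moderation Cd5 passed (limma, adjusted p = 0.00906), as it did with normexp background correction (limma, adjusted p = 0.00543), settings in which 3.89% and 3.7% of all genes passed. Under the other settings 0 members passed, while the share of all genes that did was 5.08% with median scaling, 1.27% from the authors' table, 0.894% with a filter on all arrays, 0.75% with the mean of probes and 0.0244% with quantile normalization. It was 2.37% without knockout replicate 1, 1.01% without knockout replicate 2 and 0% in the remaining 5. The array carries 1 Cd5 probe, so no second probe checks it.

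Cd5 is also made by some B cells, and B-cell marker signal differed between the genotypes. The summed linear signal of 12 B-cell markers, relative to the 75th percentile, was 4.74 and 2.47 on the wild-type arrays and 13.5 and 8.48 on the knockout arrays. Pou2af1, a B-cell coactivator gene, was at 0.84 and -0.06 in wild-type and 3.03 and 2.68 in knockout cells (limma, adjusted p = 0.0684). It gave 37.9% and 38.8% of the sum on the wild-type arrays and 60.3% and 75.6% on the knockout arrays. The other B-cell markers summed to 2.94 and 1.51 in wild-type and to 5.38 and 2.07 in knockout cells, which overlap. Ms4a1, which encodes the B-cell surface protein CD20, overlapped between genotypes, at -1.41 and -3.32 in wild-type and -0.30 and -2.16 in knockout cells. Cd79a was above background on 3 of 4 arrays. The markers varied unlike each other over knockout replicates 1 and 2, where Ms4a1 lay far apart and Cd22 was at -2.15 and -2.23. The part of B-cell RNA in the Cd5 difference was not tested.

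Among the genes beside Cd5 on chromosome 19, its relative Cd6 and the transporter gene Slc15a3 were higher in knockout cells as well. Cd6, which encodes a receptor of the same scavenger family that also modulates T cell receptor signalling, was at 6.59 and 6.67 in wild-type and at 7.33 and 7.43 in knockout cells. The groups did not overlap, and the difference of 0.75 ± 0.17 (SE) did not pass (limma, adjusted p = 0.173). Slc15a3, the next gene, which encodes a lysosomal transporter of histidine and small peptides, was at -1.25 and -1.11 in wild-type and at 0.75 and 1.11 in knockout cells. It rose 4.31-fold (log2 2.11 ± 0.21 SE; limma, adjusted p = 0.0392). The call was lost with the replicate block (limma, adjusted p = 0.0967), with quantile normalization (0.0766), with the percentile taken over detected probes (0.0691), without a filter (0.492) and on leaving out wild-type replicate 1 (0.128) or 2 (0.143). On the other side of Cd5, Vps37c differed by 0.40 (limma, adjusted p = 0.658). As with the CD3 genes, the neighbours were looked up after the members' values were seen.

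**Figure D3:**
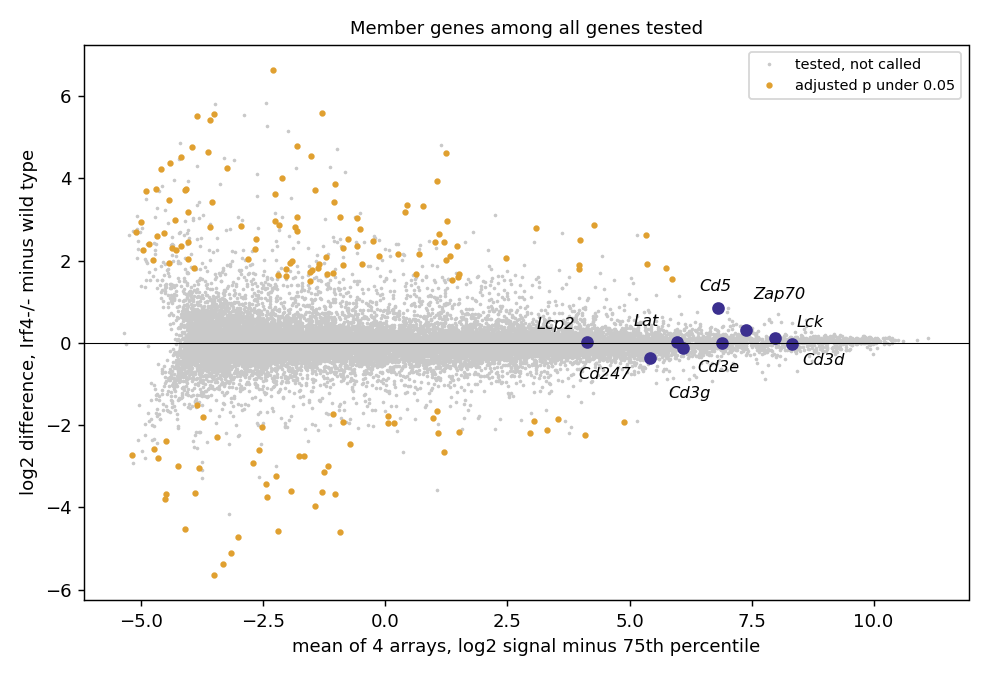
Log2 difference of Irf4-/- minus wild type (vertical axis) against the mean log2 signal minus the 75th percentile over 4 arrays (horizontal axis) for the 20512 genes tested, with the 151 that passed in orange and the 9 members in blue. The members lie close to 0 except Cd5 at 0.86, Cd247 at -0.36 and Zap70 at 0.31, and none reaches the size of the genes that passed, the smallest of which was 2.84-fold.

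Around these 9 genes, 77 names of other receptor signalling genes were listed and 70 were found on the array by symbol. Of these, 68 were tested, and 0 rose and 0 fell (limma, adjusted p under 0.05; 0.736% of all genes passed). At an unadjusted p under 0.05, 12 of the 68 were higher and 9 of the 68 lower, against 6.36% and 5.01% of all genes. The lists were chosen with earlier results of these data known, so these counts only describe the lists. Differences were positive for 29 and negative for 39, with a median of -0.04 beside the -0.02 of all genes. The lowest adjusted p was 0.0668. Trac, Trbc1 and Trbc2 were not matched by symbol.

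Of 7 receptor and coreceptor genes tested, the largest differences were those of Trat1, Cd8b1 and Cd6. Trat1, which encodes a transmembrane adaptor associated with the receptor, was at 0.47 and -0.45 in wild-type and 1.44 and 1.86 in knockout cells (log2 difference 1.64; limma, adjusted p = 0.167), and a second probe differed by 1.51. Cd8b1, the CD8 beta chain gene, was at 3.12 and 3.21 in wild-type and 2.23 and 2.14 in knockout cells (-0.98; limma, adjusted p = 0.0980), while Cd8a was above background on 2 of 4 arrays and was not tested. The summed linear signal of both CD8 genes was 8.77 and 9.29 against 4.76 and 4.45. Cd4 differed by 0.11 (limma, adjusted p = 0.944) and Ptprc, encoding the phosphatase CD45, by -0.11 (limma, adjusted p = 0.938).

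Of 11 further kinase and phospholipase genes, the largest differences were those of Syk, Tec and Txk. Syk, the relative of Zap70 that also serves the B-cell receptor, was at -3.59 and -3.91 in wild-type and at -2.30 and -2.45 in knockout cells (1.37; limma, adjusted p = 0.0701). A second Syk probe differed by -0.10, so Syk gave no settled direction. The processed signal of the first probe was 20.4 to 60.2, near the lowest signals counted as above background (11.7 to 19.9). The B-cell marker sum given above was higher on the knockout arrays, but overlapped without Pou2af1. The part of B-cell RNA in the Syk signal was not tested. The Tec-family kinase genes Tec and Txk differed by 1.04 (limma, adjusted p = 0.228) and 0.85 (limma, adjusted p = 0.322). The Src-family kinase gene Fyn differed by 0.21, the inhibitory kinase gene Csk by 0.11 and the phospholipase gene Plcg1 by 0.09 (limma, adjusted p between 0.828 and 0.948).

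Among 20 adaptor and exchange factor genes, Tespa1, a regulator of receptor signalling in thymocytes, was 2.14-fold higher without passing (limma, adjusted p = 0.351). Its wild-type arrays lay apart, at 1.00 and -0.03, with knockout arrays at 1.64 and 1.52. Malt1, the protease and scaffold that links the receptor to NF-kappaB, was at 2.57 and 2.52 in wild-type and 1.71 and 1.65 in knockout cells (-0.86; limma, adjusted p = 0.124), with a second probe at -0.74. Sh2d2a, encoding an adaptor that binds Lck, differed by 0.59 (limma, adjusted p = 0.269) and Grap2, the partner of SLP-76, by -0.32 (limma, adjusted p = 0.850).

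Among 20 negative regulators tested, Ubash3b came closest to passing of all 68. It encodes Sts-1, a phosphatase that acts on Zap70, and was at 1.80 and 1.77 in wild-type and 2.96 and 3.17 in knockout cells (1.28 ± 0.18 SE; limma, adjusted p = 0.0668). It passed with normexp, with median scaling, with trend and robust moderation and with a filter on all arrays. Lax1, an inhibitory adaptor gene related to Lat, was at -0.61 and -0.58 against -1.79 and -1.58 (-1.08; limma, adjusted p = 0.0882). Sla2, encoding an adaptor that lowers receptor levels, differed by 0.66 (limma, adjusted p = 0.334) and the phosphatase gene Ptpn22 by 0.60 (limma, adjusted p = 0.292). Of 10 genes of second messengers and calcium entry, the inositol trisphosphate receptor genes Itpr1 and Itpr3 differed by -0.67 and -0.55 and the calcium channel gene Orai2 by 0.35 (limma, adjusted p between 0.200 and 0.678).

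**Figure D4:**
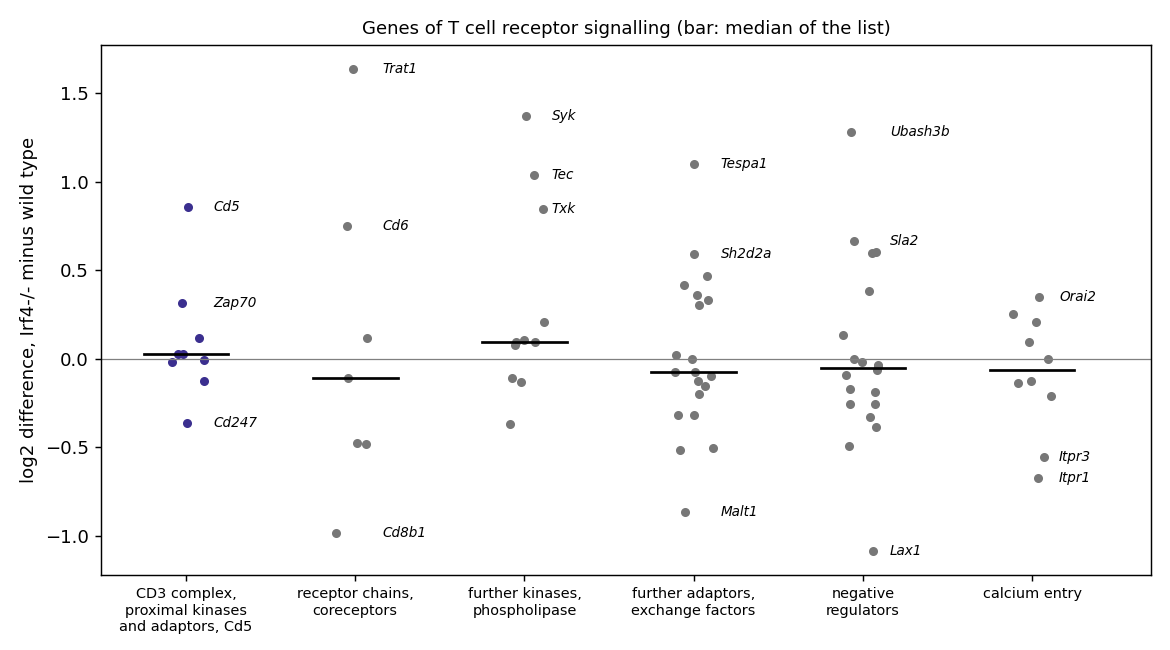
Log2 difference of Irf4-/- minus wild type (vertical axis) for the 9 members, in blue, and the 68 other receptor signalling genes tested, in grey, by group (horizontal axis), with bars at group medians. The medians lie between -0.11 and 0.10, while single genes reach from -1.08 (Lax1) to 1.64 (Trat1), and none passed the test.

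Markers of other cells were read on the same arrays. Of 7 natural killer cell markers, 5 (Ncr1 among them) were above background on no array, and the summed linear signal of the list was 0.12 on both wild-type arrays and 0.20 and 0.11 on the knockout arrays. The 14 myeloid and dendritic markers summed to 121 and 144 in wild-type and 124 and 141 in knockout cells, of which Siglech and Csf3r gave 89.8% to 91.8% on each array. The other 12 summed to 12.3 and 13.1 in wild-type and to 12.4 and 11.6 in knockout cells. Lyz2, Adgre1, Itgax and Clec9a were above background on no array, and Csf1r was at 2.09 and 1.55 against 2.10 and 1.56. Of the 8 tested, 6 differences were positive and 0 passed. Tyrobp, a signalling adaptor gene of myeloid and natural killer cells, was at -2.23 and -2.76 in wild-type and -0.78 and -0.47 in knockout cells (1.87; limma, adjusted p = 0.0650). Fcer1g, the gene of an Fc receptor chain related to the zeta chain, differed by 0.90 and Cd68 by 0.60, both without overlap (limma, adjusted p = 0.259 and 0.249). Of the 8, 4 were higher and 1 lower without overlap, the lower being Itgam (-0.30; limma, adjusted p = 0.755). The part of such RNA in the members' differences was not tested. The 8 T cell markers measured, which include Cd3d, Cd3e, Cd3g and Cd247, summed to 1212 and 1120 in wild-type and to 1113 and 1040 in knockout cells.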

How the data were processed

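RNA of 4 samples, 2 wild type and 2 Irf4-/-, was measured on one-colour (Cy3) Agilent mouse arrays built on mm9, 1 array a sample. Spot intensity was deposited by the authors as Agilent Feature Extraction 11.0.1.1 wrote it, per the file headers (the submitters' processing notes name 9.1), with background subtracted and no scaling between arrays. The treatment protocol in the labels names shorter cultures, and the 2 days stated by the titles were used. The authors also deposited a log2 table, which matched the scanner values after each probe was centred (constant shifts of at most 0.03, SD 0.002), and it served as an alternative; its column medians were -0.17 and 0.10 (wild type) and -0.11 and 0.12 (knockout), and it keeps no levels.

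Control and outlier-flagged spots were left out, spots of 1 probe were averaged, and log2 signals were set against each array's 75th percentile. Accessions of 32994 probes matched 22911 symbols in RefSeq (GRCm38.p6), and 23611 probes kept their accession. The brightest probe represented a gene, and 20512 genes above background on both arrays of 1 genotype or more were fitted with limma 3.58.1 in R 4.3.3 (Benjamini-Hochberg, threshold 0.05; 2 residual and 2.95 prior degrees of freedom). The fit was run on simulated data with planted changes larger than any member's difference, so that run does not speak to changes of the members' size. No counts exist, so the number of arrays limits the precision.

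The members and gene lists were chosen with earlier results of these data known. Named were Irf4, all members with every probe, fixed pathway and marker genes, and the 3 largest differences per pathway list. Other probes of a gene were fitted with limma too. Replicate numbers follow accession order and equal slide row; same-numbered arrays deviated together (r = 0.348 over genes), but with 2 pairs this does not establish pairing. Results of some listed genes are not reported here.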

Additional observations from a re-analysis of the deposited data

How the results depend on the processing

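The 9 members, the 68 other pathway genes and all genes were refitted with limma under 14 other settings, 10 of them on all 4 arrays. Cd5 (0.75 to 0.91), Zap70 (0.20 to 0.42) and Lck (0.0062 to 0.23) stayed higher in every one of them. Cd247 (-0.47 to -0.045) and Cd3g (-0.23 to -0.033) stayed lower, so Lck, Cd247 and Cd3g came near 0 in some settings. Of the members 0 passed, except Cd5 as the 1 that passed with trend and robust moderation and with normexp (on the median spot signal, added after seeing the data in place of the planned mean signal). The sign turned for values near 0: Cd3d 0.0078 and Cd3e 0.018 with the 75th percentile over detected probes, Cd3e 0.033 with the mean of probes, and Lat -0.085 and Lcp2 -0.080 with median scaling, which moved the median of all genes by -0.11. Leaving out 1 array gave -0.10 to 0.065 for Cd3d, -0.17 to 0.15 for Cd3e, -0.019 to 0.068 for Lat and -0.11 to 0.17 for Lcp2. Other pathway genes passed with normexp (9), trend and robust (7), median scaling (5) and a filter on all arrays (1, Ubash3b). Ubash3b passed in all 4 of these, and Cd8b1 and Lax1 in the first 3. Over all genes the count was 151, but 759 with normexp, 1043 with median scaling, 797 with trend and robust and 260 from the authors' table. It was 5 with quantile normalization (2513 unadjusted), and limma called 0 with the detected-probe percentile (2352 at an unadjusted p under 0.05), without a filter (2099) and with a replicate block (3193). The block changed no call among the members. Leaving out 1 array gave 0 to 487, namely 0 without wild-type replicate 1 (1864 unadjusted) or 2 (1678) and 487 without knockout replicate 1. A lone array is assumed to vary like the others. The cause of these moves was not tested.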
